A study of Homo sapiens with 16 samples.

Results

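The genes described here encode the nuclear lamina and its binding partners: the lamins LMNA, LMNB1 and LMNB2, the inner nuclear membrane proteins LBR, TMPO, EMD and LEMD3, and the chromatin linker BANF1. They were taken as every probe set (a group of short probes read as 1 value) whose only gene symbol in the platform annotation is 1 of these 8 genes, which gave 17 of the 54675 probe sets on the array. LMNA has 6 probe sets, TMPO has 5 and each of the other 6 genes has 1. The 8 genes are part of 19775 genes that the array names by a single symbol.

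RNA of SAOS, a human osteosarcoma line without functional RB, was hybridised to 16 arrays, 4 for each of 4 groups, in a study of how overexpressed SMYD2, a lysine methyltransferase, acts on ectopic RB. The first group was transiently transfected with human RB1 and mouse SMYD2 together, the second with human RB1 alone and the third with mouse SMYD2 alone. The control group was SAOS without transfection, so every difference from control includes any effect of the transfection itself, and no group with an empty vector was analysed here. All 4 groups are the same line, so ectopic RB was read in cells that lack their own functional RB. The arrays of each group are numbered 1, 3, 4 and 5. Whether the 4 were grown apart is not given in the labels, and every p-value therefore rests on the variation among these arrays, part or all of which may be technical.

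The lamina is a meshwork of intermediate filaments under the inner nuclear membrane that shapes the nucleus, anchors heterochromatin and is taken apart and rebuilt at each mitosis. A-type lamins, the products of LMNA, are abundant in mesenchymal and stiff tissues such as bone, while B-type lamins are made in nearly all cells and stay attached to the membrane through a farnesyl tail. Loss of lamin B1 is a known mark of senescent cells, and a nucleoplasmic product of TMPO forms a complex with A-type lamins that binds RB.

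The list divided into genes that were lower in the groups with RB and genes whose differences did not pass. TMPO and LMNB1 fell with RB against control, and TMPO, LMNB1, LMNB2 and LBR fell with RB plus SMYD2 against either control or SMYD2 alone. LMNA, EMD and LEMD3 differed by at most 0.18 on the log2 scale in every comparison, and none of them passed the test. BANF1 had negative differences wherever RB was added but varied widely between arrays and did not pass.

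The sequences before the transcription starts of the 4 genes that fell are shown because these genes moved together, with those of LMNA, EMD, LEMD3 and BANF1, which did not pass, for contrast. They are the 250 bases before each annotated start, 5′ to 3′ on the gene's strand, from RefSeq on build GRCh38.p14, in which all 8 genes matched, with 12 windows. Capitals mark matches on either strand to 3 motifs: E2F sites spelled TTTCGCGC, TTTGGCGC, TTTCCCGC or TTTGCCGC, the cell cycle homology region spelled TTTGAA or TTCGAA, and the CCAAT box.
TMPO, chr12:98515323-98515572, plus strand: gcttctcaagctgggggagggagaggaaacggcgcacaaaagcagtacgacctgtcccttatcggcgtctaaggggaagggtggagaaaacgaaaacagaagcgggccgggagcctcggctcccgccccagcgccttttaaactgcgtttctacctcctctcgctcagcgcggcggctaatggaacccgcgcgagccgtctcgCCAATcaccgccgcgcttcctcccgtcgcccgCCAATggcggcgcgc
LMNB1 upstream start, chr5:126776373-126776622, plus strand: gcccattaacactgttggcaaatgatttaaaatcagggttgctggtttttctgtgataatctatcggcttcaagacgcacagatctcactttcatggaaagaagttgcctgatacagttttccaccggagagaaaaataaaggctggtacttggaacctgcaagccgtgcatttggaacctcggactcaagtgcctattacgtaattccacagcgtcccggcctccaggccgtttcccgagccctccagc
LMNB1 downstream start, chr5:126776886-126777135, plus strand: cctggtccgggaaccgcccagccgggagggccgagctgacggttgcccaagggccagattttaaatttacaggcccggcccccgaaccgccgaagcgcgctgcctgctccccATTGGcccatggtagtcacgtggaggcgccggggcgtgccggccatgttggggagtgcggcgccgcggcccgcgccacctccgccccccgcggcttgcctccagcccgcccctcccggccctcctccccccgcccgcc
LMNB2, chr19:2456960-2457209, minus strand: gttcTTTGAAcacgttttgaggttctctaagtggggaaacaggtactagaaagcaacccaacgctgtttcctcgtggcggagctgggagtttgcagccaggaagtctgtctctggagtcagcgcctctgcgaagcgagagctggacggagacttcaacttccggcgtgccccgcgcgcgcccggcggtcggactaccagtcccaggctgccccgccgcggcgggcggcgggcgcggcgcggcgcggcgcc
LBR, chr1:225428822-225429071, minus strand: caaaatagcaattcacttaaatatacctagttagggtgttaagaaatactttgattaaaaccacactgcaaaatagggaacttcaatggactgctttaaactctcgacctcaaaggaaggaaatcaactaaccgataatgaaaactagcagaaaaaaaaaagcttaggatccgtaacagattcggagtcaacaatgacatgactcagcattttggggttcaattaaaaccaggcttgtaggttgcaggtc
LMNA upstream start, chr1:156082323-156082572, plus strand: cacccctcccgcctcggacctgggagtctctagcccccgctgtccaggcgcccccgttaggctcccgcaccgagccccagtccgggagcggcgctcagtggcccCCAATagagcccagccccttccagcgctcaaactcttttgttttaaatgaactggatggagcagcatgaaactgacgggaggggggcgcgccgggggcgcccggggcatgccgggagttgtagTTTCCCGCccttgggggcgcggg
EMD, chrX:154379045-154379294, plus strand: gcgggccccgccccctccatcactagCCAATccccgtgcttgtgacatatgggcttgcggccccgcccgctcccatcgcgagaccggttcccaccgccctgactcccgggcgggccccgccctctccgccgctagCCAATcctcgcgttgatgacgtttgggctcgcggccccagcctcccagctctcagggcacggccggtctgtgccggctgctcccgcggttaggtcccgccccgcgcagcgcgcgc
LEMD3, chr12:65169333-65169582, plus strand: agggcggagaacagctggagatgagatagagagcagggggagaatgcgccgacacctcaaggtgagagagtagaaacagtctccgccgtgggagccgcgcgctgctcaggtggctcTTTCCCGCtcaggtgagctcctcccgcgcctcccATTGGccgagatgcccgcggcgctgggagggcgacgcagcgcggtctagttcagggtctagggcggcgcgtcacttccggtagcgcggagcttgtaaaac
BANF1, chr11:66002253-66002502, plus strand: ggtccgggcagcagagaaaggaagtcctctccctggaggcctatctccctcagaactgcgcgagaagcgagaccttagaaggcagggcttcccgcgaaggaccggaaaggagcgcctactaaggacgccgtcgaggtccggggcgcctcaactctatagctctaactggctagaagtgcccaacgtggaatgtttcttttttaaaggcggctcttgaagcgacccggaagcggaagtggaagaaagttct
The E2F letters were found in the LMNA window shown, 23 bases before the start, and in the LEMD3 window, 134 bases before the start, and in none of the other 10 windows, whether of the genes that fell or of EMD, BANF1 and the other LMNA starts. Of all 35116 windows of this length in the table, 2.79% hold them. CCAAT occurs at 47 and 15 bases before the TMPO start shown and at 138 before the downstream LMNB1 start. It also occurs at 146 before the LMNA start shown, at 224 and 115 before the EMD start and at 100 before the LEMD3 start. Its share over all windows is 32%. LMNB2 holds TTTGAA 246 bases before its start, at the edge of the window, against 14.3% of all windows. The windows of LBR, BANF1, the upstream LMNB1 start and the LMNA starts not shown hold none of the 3 motifs. The 3 motifs do not overlap each other in these windows. These matches describe letters in a short window and are not evidence of binding, and no match says nothing about a factor.

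Array quality bears on some of the values that follow. Array medians lay between 5.59 and 5.64 on the log2 scale, and 2 arrays of the same group had correlations of 0.981 to 0.998. The brighter of 2 RB1 probe sets, which checks the label, averaged 8.67 ± 0.90 (SD, n = 4) with RB plus SMYD2, 7.70 ± 0.34 with RB, 6.85 ± 0.17 with SMYD2 and 6.48 ± 0.32 in control. The dimmer averaged 3.43 to 3.51 in all groups. Probes for human SMYD2 may not bind the mouse construct, so they do not check that label. The 3′ ACTB signal minus the 5′ ACTB signal, which grows as RNA breaks down, was 3.53 on SMYD2 array 1 and 2.46 on control array 1, against 0.54 to 1.63 on the other arrays. The same difference for GAPDH was 0.16 on SMYD2 array 1 and 0.06 on control array 1, against -0.01 to 0.10 on the other arrays. For GAPDH, control array 1 therefore did not stand apart. Of the 9 osteoblast markers, 8 were measured, and ALPL, RUNX2, COL1A1 and IBSP lay at the 97.1 to 99.3 percentiles of all genes by mean signal, while SPP1 lay at 34.9. Of the 8, 2 rose with RB against control, SPARC and SPP1 (0.83 ± 0.16), where the background was 1.24% of all genes higher. With RB plus SMYD2 1 rose against control, SPARC (background 3% higher), and 2 rose against SMYD2 alone (background 2.94% higher). SPARC rose by 0.81 ± 0.16 with RB and by 0.79 ± 0.16 with RB plus SMYD2 against control (limma adjusted p = 0.0105 and 0.00569). Of 9 measured markers of blood, vessel, epithelium, muscle and glia, 8 lay at or below percentile 42.9 and the epithelial gene EPCAM lay at 78.2, and none of the 9 passed in any comparison. Values are deposited log2 signals, with no detection call.

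LMNB1, the gene of lamin B1, read 10.01, 10.24, 9.85 and 9.97 on arrays 1, 3, 4 and 5 of RB plus SMYD2. It read 10.38, 10.23, 10.16 and 10.04 with RB, 10.39, 10.49, 10.74 and 10.95 with SMYD2, and 10.70, 10.83, 10.90 and 10.84 in control. Every array with RB lay below every array without it, although the lowest SMYD2 array, 10.39 on array 1, lay next to the highest RB array, 10.38 on array 1. LMNB1 fell with RB against control by 0.62 ± 0.12 (SE of the limma fit) on the log2 scale, which is 1.53-fold (limma adjusted p = 0.00675). It fell by 0.80 ± 0.12, or 1.75-fold, with RB plus SMYD2 against control (limma adjusted p = 0.000247). Against SMYD2 alone it fell by 0.63 ± 0.12, or 1.55-fold (limma adjusted p = 0.00235). In each of these comparisons it was lower in 4 of 4 same-numbered pairs.

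TMPO encodes the LAP2 proteins, several of which span the inner membrane and bind B-type lamins and BANF1. Its brightest probe set, 224944_at, read 10.29, 10.47, 10.21 and 10.14 with RB plus SMYD2, 10.66, 10.69, 10.48 and 10.66 with RB, 11.35, 11.11, 11.14 and 11.13 with SMYD2, and 11.29, 11.04, 11.21 and 11.13 in control. In this set the 3 levels, both constructs below RB alone and RB alone below the groups without RB, did not overlap on any array. The gap between the lowest RB array, 10.48, and the highest RB plus SMYD2 array, 10.47, was however small. Other TMPO sets did not keep the levels apart. In 203432_at SMYD2 array 1, at 9.84, lay below the RB arrays, at 10.16 to 10.29. In 209753_s_at RB array 3, at 5.94, lay within the RB plus SMYD2 arrays, at 5.89 to 6.03. In its brightest set TMPO fell by 0.54 ± 0.09, or 1.46-fold, with RB against control (limma adjusted p = 0.0023). With RB plus SMYD2 it fell by 0.89 ± 0.09, or 1.85-fold, against control and by 0.90 ± 0.09, or 1.87-fold, against SMYD2 alone (limma adjusted p = 5.9e-06 and 5.36e-06).

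LMNB2, the gene of lamin B2, read 10.13, 10.12, 10.42 and 10.40 with RB plus SMYD2, 10.32, 10.11, 10.67 and 10.77 with RB, 10.87, 10.71, 11.15 and 11.02 with SMYD2, and 10.83, 10.76, 11.07 and 11.07 in control. Arrays 1 and 3 lay below arrays 4 and 5 in every group, and RB array 5, at 10.77, lay above control array 3, at 10.76. LMNB2 fell by 0.67 ± 0.14, or 1.59-fold, with RB plus SMYD2 against control (limma adjusted p = 0.00539), and by 0.67 ± 0.14, or 1.60-fold, against SMYD2 alone (limma adjusted p = 0.00504). With RB against control it differed by -0.46 ± 0.14, lower in 4 of 4 pairs, and did not pass (limma adjusted p = 0.0931). It passed with the replicate number as a block (limma adjusted p = 0.000551).

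LBR, the lamin B receptor, which also carries sterol reductase activity and binds heterochromatin protein HP1, read 10.14, 10.48, 10.21 and 10.35 with RB plus SMYD2 and 10.43, 10.52, 10.53 and 10.41 with RB. It read 10.50, 10.81, 11.04 and 11.15 with SMYD2 and 10.67, 10.90, 11.07 and 11.11 in control. The RB arrays lay close together and below all control arrays, while SMYD2 array 1, at 10.50, fell inside the range of the RB arrays. LBR fell by 0.64 ± 0.13, or 1.55-fold, with RB plus SMYD2 against control (limma adjusted p = 0.0043) and by 0.58 ± 0.13, or 1.49-fold, against SMYD2 alone (limma adjusted p = 0.00885). The second call was lost when only those 2 groups entered the fit (limma adjusted p = 0.0565). With RB against control it differed by -0.46 ± 0.13 and did not pass (limma adjusted p = 0.0642). It passed with the replicate block (limma adjusted p = 0.0069), without SMYD2 array 1 (0.0127), without control array 1 (0.0302) and without SMYD2 array 5 (0.0476).

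**Figure D1:**
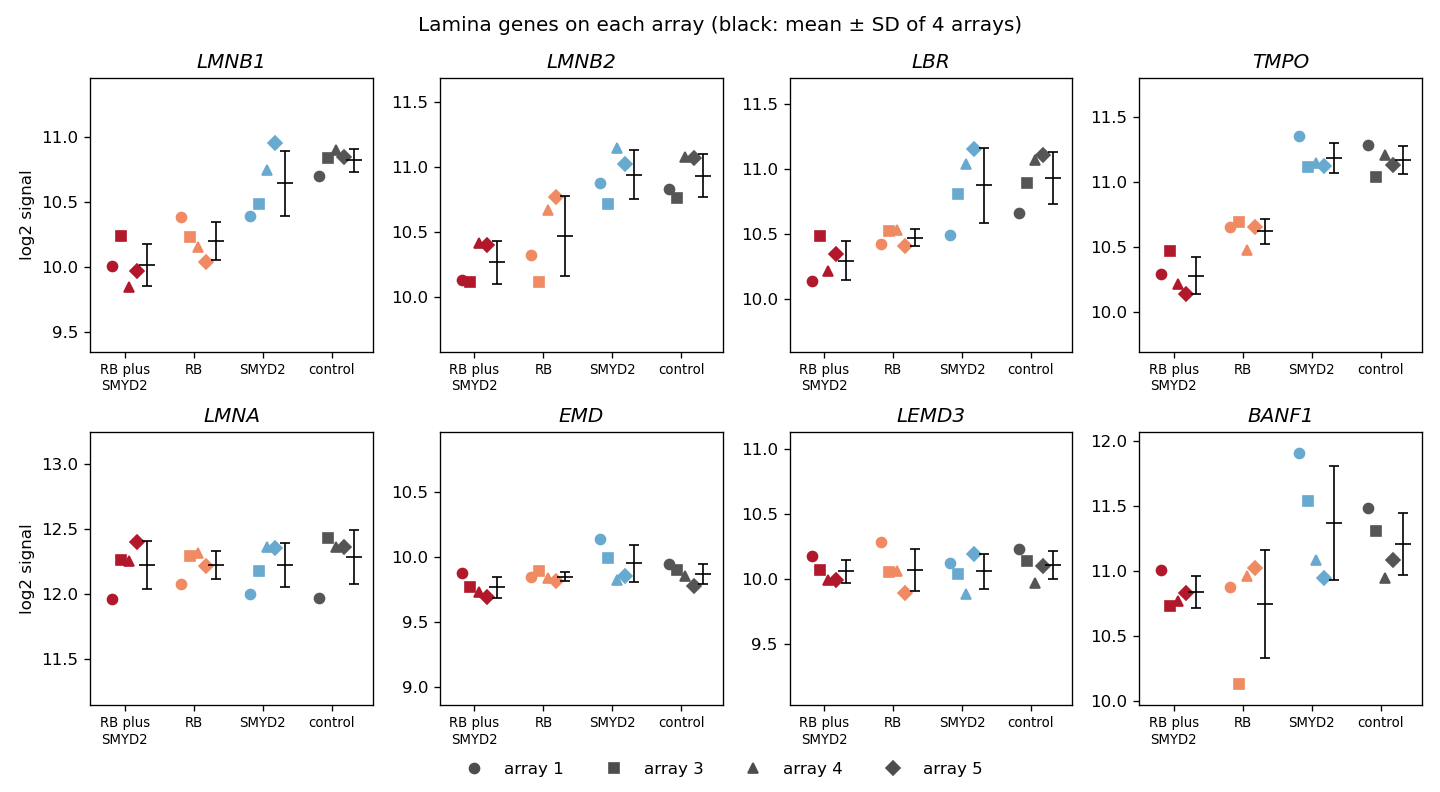
Log2 signal (vertical axis) of the probe set with the highest mean of each of the 8 genes on every array, by group, with array numbers as marker shapes and the mean ± SD of 4 arrays in black. Each panel spans the same range of log2 signal. The RB plus SMYD2 arrays of LMNB1, LMNB2, LBR and TMPO lie below all SMYD2 and control arrays, the RB arrays do so for LMNB1 and TMPO, and LMNA, EMD and LEMD3 overlap in all 4 groups.

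LMNA, the gene of lamins A and C, read 11.96, 12.26, 12.25 and 12.40 with RB plus SMYD2, 12.07, 12.29, 12.32 and 12.21 with RB, 11.998, 12.18, 12.36 and 12.35 with SMYD2, and 11.97, 12.43, 12.36 and 12.36 in control. All 4 groups overlapped, and array 1 was the lowest of its group in each. LMNA differed by -0.06 ± 0.11 with RB plus SMYD2 against control (95% interval -0.30 to 0.17) and by -0.06 ± 0.11 with RB against control (95% interval -0.30 to 0.18). These intervals, of the brightest set, leave room for a decrease of up to 0.30 on the log2 scale and none of the size seen for LMNB1 (0.80 and 0.62). Those of the LMNA set 1554600_s_at were wider, -0.41 to 0.39 and -0.45 to 0.35. The comparisons share groups, control among them, so the values of 1 gene in several comparisons are not independent.

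Emerin, the product of EMD, and MAN1, the product of LEMD3, carry the LEM domain that binds BANF1, and MAN1 also binds SMAD proteins. EMD read 9.88, 9.77, 9.73 and 9.70 with RB plus SMYD2, 9.85, 9.90, 9.84 and 9.82 with RB, 10.14, 9.998, 9.83 and 9.85 with SMYD2, and 9.95, 9.90, 9.86 and 9.78 in control. The groups overlapped. Its largest difference was -0.18 ± 0.08 with RB plus SMYD2 against SMYD2 alone (95% interval -0.35 to -0.02, limma adjusted p = 0.203), and against control it was -0.10 ± 0.08. LEMD3 read 10.18, 10.07, 9.998 and 9.995 with RB plus SMYD2, 10.29, 10.05, 10.07 and 9.89 with RB, 10.13, 10.04, 9.89 and 10.20 with SMYD2, and 10.24, 10.14, 9.97 and 10.10 in control. Its differences lay between -0.05 and 0.00 in all 5 comparisons of groups, the largest being -0.05 ± 0.09 with RB plus SMYD2 against control (95% interval -0.25 to 0.15).

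BANF1, the barrier-to-autointegration factor, is a small protein that crosslinks DNA and LEM-domain proteins as the envelope reforms. It read 11.01, 10.74, 10.77 and 10.83 with RB plus SMYD2, 10.88, 10.14, 10.96 and 11.02 with RB, 11.91, 11.54, 11.09 and 10.95 with SMYD2, and 11.49, 11.31, 10.95 and 11.08 in control. Only the group with both constructs was narrow (SD 0.12, against 0.41 with RB, 0.44 with SMYD2 and 0.24 in control), and RB array 3 lay far below the other RB arrays. BANF1 differed by -0.46 ± 0.20 with RB against control, by -0.54 ± 0.20 with RB plus SMYD2 against SMYD2 alone and by -0.37 ± 0.20 against control, and passed in none (limma adjusted p = 0.332, 0.136 and 0.37). Without RB array 3 the first was -0.25, and with the replicate block the second passed (limma adjusted p = 0.0498). SMYD2 array 1 and control array 1, which had the largest 3′ to 5′ ACTB differences, also gave the highest BANF1 reading of their groups. RB plus SMYD2 array 1, whose ACTB difference was 1.17, did so as well. RB array 1, with the next largest ACTB difference, 1.63, did not, and read 10.88, below RB arrays 4 and 5. Without SMYD2 array 1 the second difference was -0.36. The part of RNA integrity in these values was not tested.

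**Figure D2:**
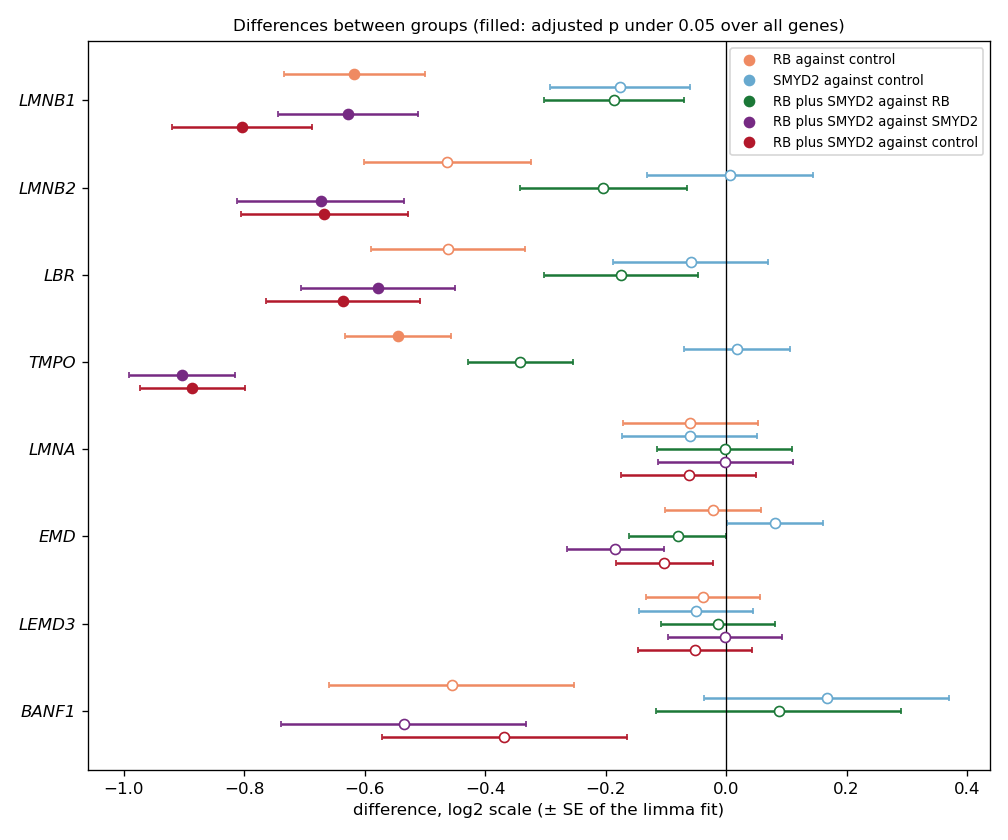
Differences between groups on the log2 scale (horizontal axis, ± SE of the limma fit) for the 8 genes in 5 comparisons, filled where the adjusted p over all genes was under 0.05. Filled points occur for LMNB1 and TMPO in 3 comparisons and for LMNB2 and LBR in 2, all on the negative side. No point is filled for SMYD2 against control or for RB plus SMYD2 against RB.

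Counted over all 8 genes, RB against control called 2 lower and 0 higher, where the background was 1.71% of all genes called lower and 1.24% called higher. The median difference of the 8 was -0.46, beside 0.01 over all genes. All 8 differences were negative, as were 48.2% over all genes, and 3 genes had every RB array below every control array, as had 5.2% of all genes. With the replicate block 4 were called lower, where the background of genes called lower was 3.47%. RB plus SMYD2 against SMYD2 alone called 4 lower and 0 higher (background 4.25% lower and 2.94% higher), with a median of -0.56 beside 0.01 over all genes. There 8 differences were negative (47.8% of all genes) and 4 genes had arrays wholly lower (6.61% of all genes). RB plus SMYD2 against control called 4 lower and 0 higher (background 4.2% lower and 3% higher), with a median of -0.50 beside 0.02. Again 8 differences were negative (43.1% of all genes) and 4 genes had arrays wholly lower (7.79% of all genes). Both counts of 4 also came out when any single array was omitted. In bulk RNA a lower level in every cell and a change in only the transfected share of the cells cannot be told apart.

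SMYD2 against control called 0 of them and 0 of all genes (background 0%, with 572 genes at an unadjusted limma p under 0.05, and 0 called with the replicate block). Their median difference was -0.02, beside 0.01 over all genes, with 4 of the 8 negative (45.3% of all genes) and none with arrays wholly lower (0.602% of all genes). TMPO and LMNB2 differed by 0.02 ± 0.09 and 0.01 ± 0.14, LBR by -0.06 ± 0.13 and LMNB1 by -0.18 ± 0.12. The 95% intervals reached -0.17 for the brightest TMPO set, -0.29 for LMNB2, -0.33 for LBR and -0.42 for LMNB1. The TMPO sets 203432_at, 209753_s_at, 209754_s_at and 237863_at differed by -0.29, -0.03, -0.26 and 0.04. Their 95% intervals reached -0.62, -0.24, -1.07 and -0.15. Without SMYD2 array 1 the difference of LMNB1 was -0.09.

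Whether SMYD2 altered these genes in cells given RB is the question closest to the purpose of the study. RB plus SMYD2 against RB called 0 of the 8 and 0 of all genes (background 0%, with 856 genes at an unadjusted limma p under 0.05, and 0 called with the replicate block). The groups also differed in mean RB1 signal, 8.67 with RB plus SMYD2 (7.90 to 9.62) and 7.70 with RB (7.40 to 8.10), with overlapping arrays. The part of RB1 signal in the differences given here was not tested. TMPO differed by -0.34 ± 0.09 (95% interval -0.53 to -0.16, limma adjusted p = 0.685). Its 2 sets of 4 arrays did not overlap, where 1.98% of all genes lay wholly lower in this comparison, and it was lower in 4 of 4 same-numbered pairs (two-sided exact permutation p = 0.0286, which is as low as this design can go). LMNB2, LMNB1 and LBR differed by -0.20 ± 0.14, -0.19 ± 0.12 and -0.17 ± 0.13, with overlapping arrays. EMD, LMNA, LEMD3 and BANF1 differed by -0.08 ± 0.08, -0.003 ± 0.11, -0.01 ± 0.09 and 0.09 ± 0.20. Of the 8 differences 7 were negative, beside 48.1% over all genes. None of the 17 probe sets passed, where 0.00183% of all probe sets were called lower. The TMPO sets 203432_at, 209753_s_at, 209754_s_at and 237863_at differed by -0.29 ± 0.16, -0.19 ± 0.10, -0.44 ± 0.38 and 0.02 ± 0.09. Whether RB acted differently with SMYD2 present was tested as an interaction, and 0 of the 8 and 0 of all genes passed (582 genes at an unadjusted limma p under 0.05, and 0 passed with the replicate block). The interaction of TMPO in its brightest set was -0.36 ± 0.12 (limma adjusted p = 1) and that of LMNB1 was -0.01 ± 0.16. In TMPO sets 203432_at and 209753_s_at the interaction was -0.004 ± 0.23 and -0.16 ± 0.14. In 209754_s_at and 237863_at it was -0.18 ± 0.54 and -0.02 ± 0.12. Of the 8 interaction terms 6 were negative, beside 52% over all genes.

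The order of the group means was the same for TMPO, LMNB2, LBR and LMNB1 at its lower end, with RB plus SMYD2 lowest and RB next. In LMNB1 and LBR control was highest with SMYD2 next below it, and in TMPO and LMNB2 SMYD2 was highest with control next below it, but those upper neighbours overlapped in each gene. The lower neighbours overlapped in LMNB1, LMNB2 and LBR and not in the brightest set of TMPO.

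All 17 probe sets were also tested one by one over the 54675 on the array. RB plus SMYD2 against control called 6 lower, where the background was 2.12% lower, and RB plus SMYD2 against SMYD2 alone called 5 lower, also with a background of 2.12%. RB against control called 3 lower, where the background was 0.662%. The 6 were those of LMNB1, LMNB2 and LBR and 3 of the 5 for TMPO. Probe sets of 1 gene read the same RNA samples and are not replicates of a condition. Which transcripts of a gene each set reads was not examined.

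The TMPO sets 203432_at and 209753_s_at differed by -0.85 ± 0.16 and -0.74 ± 0.10 with RB plus SMYD2 against control (limma adjusted p = 0.00442 and 0.000273), close to the brightest set. Set 209754_s_at averaged 5.54 ± 0.17 (SD, n = 4) with RB plus SMYD2, 5.98 ± 0.21 with RB, 6.03 ± 1.08 with SMYD2 and 6.29 ± 0.60 in control, and its difference from control of -0.75 ± 0.38 did not pass. The dimmest, 237863_at, averaged 3.37 to 3.53 in the 4 groups and differed by -0.09 ± 0.09. Against SMYD2 alone 203432_at differed by -0.57 ± 0.16 and did not pass (limma adjusted p = 0.061), while 209753_s_at fell by 0.71 ± 0.10 (limma adjusted p = 0.000457). With RB against control 203432_at differed by -0.56 ± 0.16 and did not pass (limma adjusted p = 0.117). There 209753_s_at fell by 0.55 ± 0.10 (limma adjusted p = 0.0111). On SMYD2 array 1 the sets disagreed: 224944_at gave the highest reading of its group, 11.35, while 203432_at gave 9.84 against 10.63 to 10.83 and 209754_s_at gave 4.70 against 5.64 to 7.13 on the other SMYD2 arrays. That array also had the 3′ to 5′ ACTB difference of 3.53, and its part in this disagreement was not tested.

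None of the 6 LMNA sets passed in any comparison. Their differences between RB plus SMYD2 and control lay between -0.08 ± 0.10, for 212089_at, and 0.07 ± 0.12, for the dimmest set, 244225_x_at. Between RB and control they lay between -0.09 ± 0.10 and 0.10 ± 0.12. The sets 1554600_s_at and 212086_x_at had, like the brightest, their lowest reading of each group on array 1, and 212089_at and 214213_x_at did so in the groups with RB only.

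**Figure D3:**
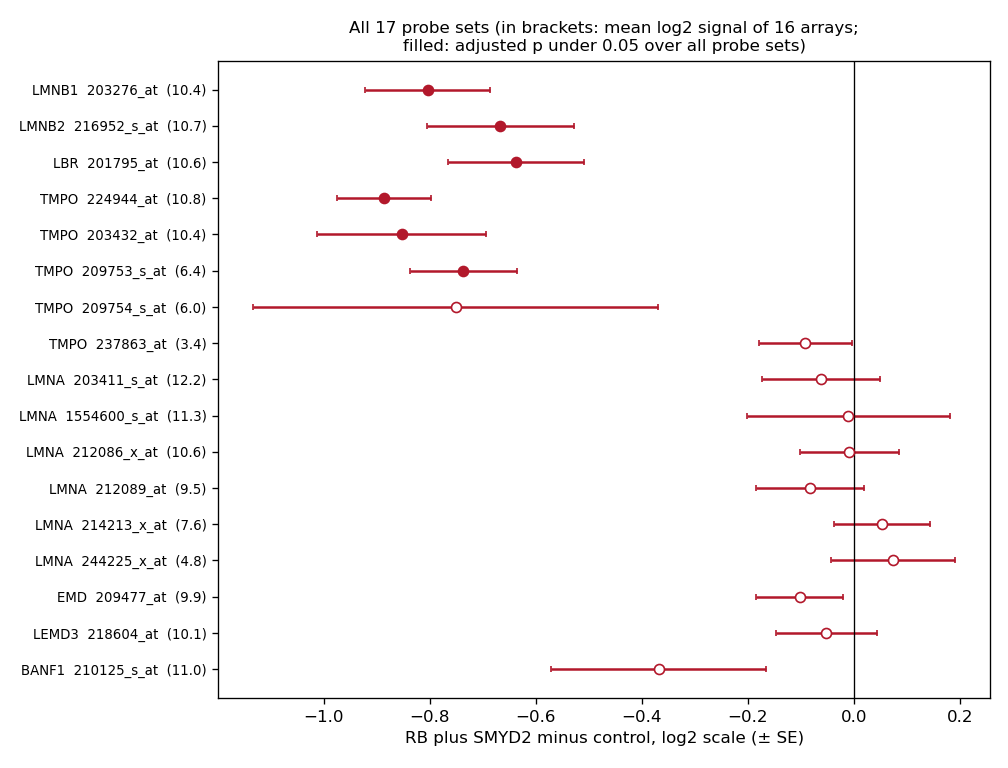
Difference of RB plus SMYD2 minus control on the log2 scale (horizontal axis, ± SE) for each of the 17 probe sets, with the mean signal over 16 arrays in brackets, filled where the adjusted p over all probe sets was under 0.05. The 6 filled points lie between -0.89 and -0.64, and the 6 LMNA sets lie between -0.08 and 0.07.

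Lamin B and lamin A were also compared within each array, which leaves out any shift that the array shares. LMNB1 minus LMNA averaged -2.21 ± 0.25 (SD, n = 4) with RB plus SMYD2, -2.02 ± 0.23 with RB, -1.58 ± 0.12 with SMYD2 and -1.46 ± 0.14 in control. With RB plus SMYD2 it ran from -2.43 to -1.96, and in control from -1.60 to -1.27, a difference of -0.74 without overlap (exact two-sided permutation p = 0.0286, and 0.0571 adjusted over the 10 comparisons of this kind). LMNB2 minus LMNA averaged -1.95 ± 0.15 with RB plus SMYD2, -1.75 ± 0.31 with RB, -1.28 ± 0.15 with SMYD2 and -1.35 ± 0.23 in control. Its difference was -0.61 with RB plus SMYD2 against control (exact two-sided permutation p = 0.0286, 0.0571 adjusted). Of the 10 comparisons, 5 reached the smallest p that the design allows, 3 of them for LMNB1 and 2 for LMNB2, and none passed after adjustment. With that floor on p, adjustment over 10 comparisons leaves little room to pass, so no conclusion is drawn from this. These differences give unequal change of both genes within an array and do not compare their amounts.

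Among the 8 genes the closest profiles over the 16 arrays, after each gene's own mean was removed, were those of EMD and LEMD3 (root mean square difference 0.12 on the log2 scale) and of LMNB1 and LBR (0.13), followed by LMNB1 and TMPO (0.21) and LMNB2 and LBR (0.21). The pair farthest apart was LMNA and BANF1 (0.47). A small distance between EMD and LEMD3 comes from profiles that both stay near their means.

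Over 11831 other genes with a mean of 6 or more, the 5 closest to LMNB1 were MCMBP, an MCM-binding protein, DTL, a ubiquitin ligase adaptor of S phase, RRM1 and TYMS, enzymes of deoxynucleotide supply, and WEE1, a kinase that restrains CDK1. Their distances ran from 0.09 to 0.11, beside a median of 0.40 over all genes compared. The 5 closest to TMPO were PCLAF, which binds PCNA, ZWINT of the kinetochore, GINS2 of the replicative helicase, TIMELESS, which protects forks, and CDC25A, a phosphatase that activates CDKs, with distances of 0.07 to 0.08 beside a median of 0.42. These 10 were chosen by likeness on the same arrays, which fixes their direction, and their differences between RB plus SMYD2 and control lay between -0.91 and -0.66. One of the GINS2 probe sets went the other way. The genes nearest LMNB2 were FBL, a nucleolar methyltransferase, POLD1, the catalytic subunit of DNA polymerase delta, SAE1, a subunit of the SUMO-activating enzyme, DNMT3B, a DNA methyltransferase, and FBLN1, an extracellular matrix protein, at 0.09 to 0.13 beside a median of 0.38. Those nearest LMNA were CPD, GPI, GOT1, TCAIM and NOLC1, at 0.04 to 0.07 beside a median of 0.23. In RB plus SMYD2 against control, only 3 of 5 FBLN1, 2 of 5 CPD and 2 of 5 TCAIM probe sets had the sign of the one used. Among the TCAIM sets, 1 passed in the opposite direction. These distances are descriptions across arrays that share their groups and replicate numbers.

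**Figure D4:**
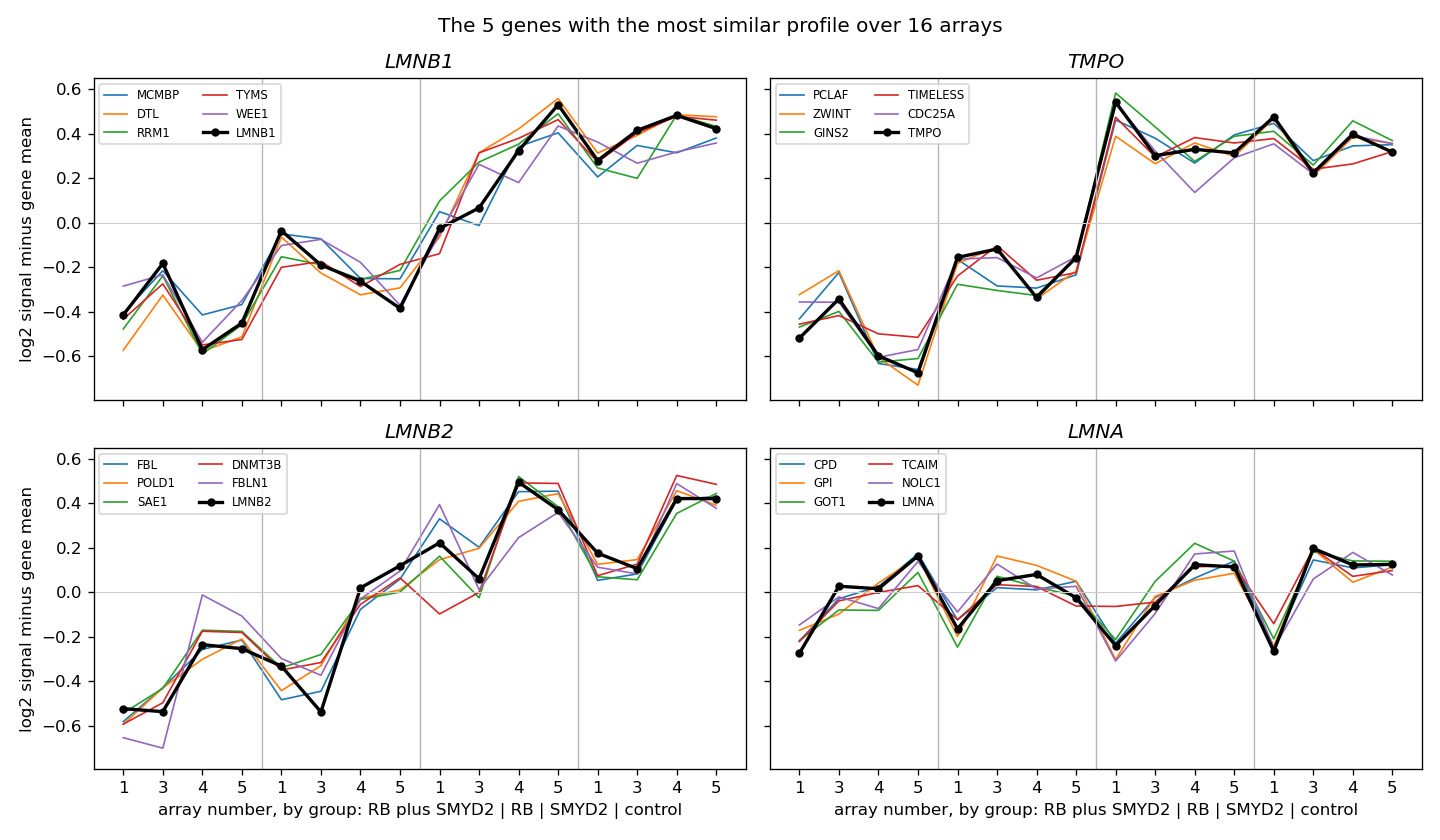
Log2 signal minus each gene's own mean (vertical axis) on the 16 arrays (horizontal axis, by group) for LMNB1, TMPO, LMNB2 and LMNA in black and the 5 genes closest to each in colour. TMPO and its neighbours step down in the groups with RB, while LMNA and its neighbours dip on array 1 of each group.

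The lamina belongs to a larger envelope, and 7 lists of its other genes were read from the same fit. Among 31 nuclear pore genes, 17 fell and 14 did not pass with RB plus SMYD2 against control, with a median of -0.37 (background 4.2% lower). NUP35, a scaffold nucleoporin, fell by 0.70 ± 0.19, NDC1, a membrane anchor of the pore, by 0.68 ± 0.13 and NUP85, of the Y complex, by 0.60 ± 0.08. SEC13, which the pore shares with the COPII coat, was the only one of the 31 with a positive difference, 0.15 ± 0.05, and did not pass. With RB against control 7 of the 31 fell, with a median of -0.29 (background 1.71% lower), and 13 fell without SMYD2 array 1 (background 2.71% lower). With RB plus SMYD2 against SMYD2 alone 11 fell (background 4.25% lower), and 20 without SMYD2 array 1 (background 4.82% lower).

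The 19 other inner membrane genes were mixed. With RB plus SMYD2 against control 4 fell and 15 did not pass, with a median of -0.06 (background 4.2% lower and 3% higher). NEMP1, an integral envelope protein, fell by 0.99 ± 0.14, NRM, the gene of nurim, by 0.59 ± 0.14 and ANKLE2, a LEM-domain protein that brings a phosphatase to BANF1, by 0.48 ± 0.13. With RB against control 1 fell, NEMP1, and 1 rose, TMEM120A, an envelope membrane protein, by 0.37 ± 0.09 (limma adjusted p = 0.0282, background 1.71% lower and 1.24% higher). With the replicate block 2 fell and 2 rose there (background 3.47% lower and 3.61% higher), and 4 fell and 3 rose with RB plus SMYD2 against control (background 6.78% lower and 6.17% higher). None of the 3 ANKLE2 probe sets passed in the fit over single sets.

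In the LINC complex, which joins the lamina to the cytoskeleton, 2 of 6 genes fell with RB plus SMYD2 against control and 4 did not pass (background 4.2% lower and 3% higher). SYNE2, the gene of nesprin-2, fell by 0.91 ± 0.18 and SUN2, its partner in the inner membrane, by 0.31 ± 0.08, while SYNE1, nesprin-1, differed by 0.31 ± 0.10 (limma adjusted p = 0.0914). With the replicate block, or without SMYD2 array 1, SYNE1 passed there as higher (background 6.17% and 4.72% higher). It passed against SMYD2 alone, rising by 0.36 ± 0.10 (limma adjusted p = 0.0456). Only 3 of 5 SYNE2 and 4 of 5 SYNE1 probe sets had the same sign as the one used.

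Of 14 kinases, phosphatases and their anchors that act on lamins or BANF1, 5 fell and 9 did not pass with RB plus SMYD2 against control, with a median of -0.17 (background 4.2% lower). CDCA2, which brings protein phosphatase 1 to chromatin, fell by 1.13 ± 0.12, CCNB1, the cyclin of CDK1, by 0.99 ± 0.22 and PLK1 by 0.94 ± 0.08. The other 2 were CDK1, which disassembles the lamina in mitosis, and VRK1, which phosphorylates BANF1. In RB against control 3 fell, CDCA2, PLK1 and VRK1 (background 1.71% lower), and 5 with the replicate block or without SMYD2 array 1 (background 3.47% and 2.71% lower).

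Of 10 heterochromatin partners 5 fell and 5 did not pass with RB plus SMYD2 against control (background 4.2% lower). SUV39H1, a histone H3 lysine 9 methyltransferase, fell by 0.77 ± 0.10, SUV39H2 by 0.49 ± 0.13 and CBX5, an HP1 protein, by 0.42 ± 0.10. In the fit over single probe sets 1 of the 6 CBX5 sets passed and neither of the 2 SUV39H2 sets did. With RB against control 2 of the 10 fell (background 1.71% lower), and 3 with the replicate block (background 3.47% lower). Of 13 genes of envelope reassembly 1 fell, REEP4, which clears membrane from chromatin in mitosis, by 0.42 ± 0.08, and 12 did not pass, CHMP2A (0.38 ± 0.15) and UFD1 (-0.17 ± 0.07) among them, a share near the background of 4.2% lower. Without SMYD2 array 1 CHMP2A passed as higher (background 4.72% higher). UFD1 fell with RB against control, by 0.26 ± 0.07 (limma adjusted p = 0.0435). Of the 5 genes of lamin processing none passed in the comparisons of RB or RB plus SMYD2 with control. ZMPSTE24, the protease that matures prelamin A, differed by 0.23 ± 0.13, ICMT, the methyltransferase of the farnesylated end, by -0.23 ± 0.14 and FNTA, a farnesyltransferase subunit, by 0.22 ± 0.08 with RB plus SMYD2 against control. With the replicate block FNTA passed there as higher (background 6.17% higher). Against SMYD2 alone, FNTA and ZMPSTE24 passed as higher with the block (background 6.62% higher). Only 2 of 3 FNTA probe sets had the same sign as the one used.

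**Figure D5:**
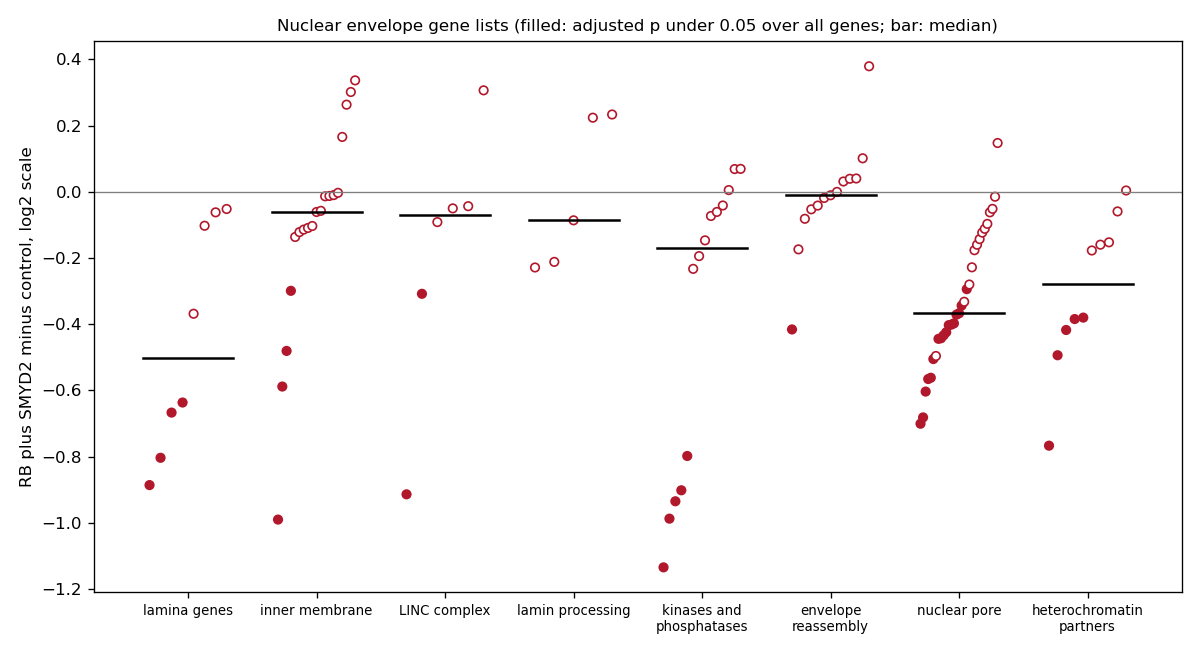
Difference of RB plus SMYD2 minus control on the log2 scale (vertical axis) for each gene of the lamina list and of 7 lists of other nuclear envelope genes, filled where the adjusted p over all genes was under 0.05, with the median of each list as a bar. All filled points lie below 0, and the lamin processing list has none.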

How the data were processed

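Total RNA of 16 SAOS samples was measured on 16 arrays. The deposited values are log2 signals per probe set, made by the authors with RMA, per the submitters' processing notes (no version given). RMA carries no detection call and no depth, so the number of arrays limits the precision. Of 54675 probe sets, 41097 carry 1 gene symbol, 1801 several and 11777 none. Each gene was read from its brightest probe set, by the mean of the 16 arrays.

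Groups were compared with limma 3.58.1 in R 4.3.3 (1 mean per group over 16 arrays, eBayes with a trend, two-sided, Benjamini-Hochberg over all 19775 genes, or over all probe sets for single sets, threshold 0.05). Alternatives were median centring, quantile normalization, the mean of a gene's probe sets, a filter on dim genes, fits of only the groups compared, no trend, array weights, the block and leaving out each array. Same-numbered arrays correlated in their deviations from the group means in every pair and comparison (lowest 0.145), so the replicate number is also given as a block. Distances between profiles used genes with a mean of 6 or more. Figures used matplotlib 3.10.9.

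The members, lists and motifs were chosen with earlier results of these data known. Named are all members, the 3 genes of each other list with the largest difference in RB plus SMYD2 against control, and the 5 closest profiles. TMEM120A, SEC13, CDK1, VRK1, SPARC and SPP1 were named after their values were seen. Promoter sequences came from RefSeq.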

Additional observations from a re-analysis of the deposited data

Results flagged for a closer look

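In each group of 4 arrays the lowest and the highest reading were set against the rest of the group for all 17 probe sets, which made 68 groups. In 8 of them 1 array stood far from the other 3, where chance flags about 1 in 20.

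In LMNA, control array 1 read 11.97 in the brightest set, and SMYD2 array 1 read 10.65 in set 1554600_s_at, each the lowest of its group. In set 244225_x_at of LMNA, the dimmest, RB array 5 read 5.09 and SMYD2 array 5 read 5.14, each the highest of its group. In TMPO, SMYD2 array 1 read 11.35 in the brightest set, the highest of its group, and 6.4 in set 209753_s_at, the lowest. RB array 3 read 5.94 in set 209753_s_at of TMPO, below the other RB arrays at 6.23 to 6.24. For BANF1, RB array 3 read 10.14, against 10.88 for the next.

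SMYD2 array 1 gave 3 of the 8. Its difference between 3′ and 5′ ACTB signal was 3.53, against 0.54 to 2.46 on the other arrays, and its part in these readings was not tested. The calls of TMPO, LMNB1, LMNB2 and LBR with RB plus SMYD2 against control or SMYD2 alone were made without that array as well. No interaction of the 8 genes passed.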

How the results depend on the processing

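The calls of TMPO and LMNB1 in RB against control, and of TMPO, LMNB1, LMNB2 and LBR in RB plus SMYD2 against control and against SMYD2 alone, held under each scaling, filter, moderation, weighting and block that was tried, and when any single array was omitted, with 2 exceptions. TMPO lost its call in RB against control with the mean of all its probe sets (-0.42, limma adjusted p = 0.0609), and LBR lost its call against SMYD2 alone with only those groups in the fit (-0.58, limma adjusted p = 0.0565). LBR gained a call in RB against control with the dim genes left out (limma adjusted p = 0.0465), with only those groups in the fit (0.0254), with array weights (0.000404) and with the replicate block (0.0069), and LMNB2 with array weights (0.0145) and with the block (0.000551). BANF1 gained one against SMYD2 alone with the block (0.0498).

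In RB against control the count of lamina genes called was 2, against 1 with mean probe sets and 4 with array weights or with the replicate block, and 2 to 3 with single arrays left out. The background rose as well. Of all genes, 339 were called lower in the main fit, 1009 with array weights and 686 with the replicate block. The count of probe sets was 3 (0.662% of all probe sets lower), against 6 with array weights (2.13%) or the block (1.61%), and 2 to 5 with single arrays left out (5 without SMYD2 array 1, with 1.21%). Against SMYD2 alone it was 5 (2.12%), against 3 with only those groups in the fit (0.999%). Over all genes, RB against control called 585, against 2296 with array weights, 1399 with the replicate block and 286 (without RB array 4) to 984 (without SMYD2 array 1). RB plus SMYD2 against SMYD2 alone called 1422, against 3141, 2812, 748 with only those groups in the fit, and 859 to 1753. RB plus SMYD2 against control called 1424, against 3687, 2562, and 899 to 2032. In both, the lowest was without RB plus SMYD2 array 4 and the highest without SMYD2 array 1. Leaving out control array 4, control array 5 or RB array 5 also lowered the first count by over 1.5 times (to 290, 318 and 347), RB plus SMYD2 array 5 lowered the second to 904 and the third to 925, and control array 4 lowered the third to 949. The cause of these changes was not tested. The block changed no other call of the 8 genes.

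Of 1144 differences recomputed for the 8 genes, 57 changed sign, with no call before or after. They were at most 0.17 in size in the main fit and at most 0.12 after the change (limma adjusted p of 0.765 or more after the change). The largest after the change was BANF1 in RB plus SMYD2 against RB without RB array 3. Dim sets such as 237863_at lie near the lowest signals, where RMA compresses differences.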
